A study of Mus musculus and Homo sapiens
Mus musculus with 14 samples.

Results

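Hcn2, Hcn3 and Hcn4 encode pore-forming subunits of the hyperpolarization-activated, cyclic nucleotide-gated (HCN) channels. These 3 genes were chosen by name, as rows of the 2 retinal count tables, and they are 3 of the 24460 genes in the table of retinal layers and 3 of the 18415 in the table of amacrine cells. Light-Seq copies RNA into cDNA inside a fixed tissue section, attaches a DNA barcode by light to the cDNA of chosen regions, and sequences the barcoded cDNA outside the tissue. All retinas came from wild-type CD1 IGS mice at P18, with no transgene or treatment. In 4 sections of 1 animal, the outer nuclear layer (ONL, photoreceptor cell bodies), the bipolar cell layer (BCL, the part of the inner nuclear layer that holds bipolar cells) and the ganglion cell layer (GCL) each received a barcode, which gave 12 libraries. In 5 further sections, the cell bodies of a few amacrine cells stained for tyrosine hydroxylase (TH+) and of neighbouring unstained amacrine cells (TH-) were barcoded, which gave 10 libraries. The study's methods speak of a single source animal for the Light-Seq experiments. The p-values below therefore measure the spread between sections and not between animals.

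HCN channels open when the membrane becomes more negative than at rest and carry a depolarizing mixed cation current called Ih. Binding of cyclic AMP to a domain inside the cell makes them open more easily, and subunits assemble as tetramers, so the mix of subunits in a cell sets how fast the current turns on and how strongly it answers to cyclic AMP. HCN4 gates slowly and is known as the main subunit of the cardiac pacemaker and, in the mouse retina, as a marker of a type of OFF cone bipolar cell. HCN2 is widespread in brain and answers strongly to cyclic AMP, whereas HCN3 answers to it hardly at all.

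All 3 genes have 8 exons in their canonical transcript on the mouse genome build GRCm39 (GENCODE vM39). Hcn2 lies on chromosome 10 from 79552120 to 79571948 on the plus strand, Hcn3 on chromosome 3 from 89053381 to 89067544 on the minus strand, and Hcn4 on chromosome 9 from 58730132 to 58770458 on the plus strand. Over the whole canonical transcripts the longest exact run shared by a pair was 33 bases for Hcn2 and Hcn3, and 32 bases for Hcn2 and Hcn4 and for Hcn3 and Hcn4. No stretch of 40 bases, the longest cDNA read that was mapped, occurred in 2 of the transcripts, so a full-length read could be told apart between them.

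The transcripts share a base composition that bears on the assay, because the reverse transcription primer ended in 3 G bases and so pairs with CCC in the RNA. Hcn2 had 65.9% G and C and 44.0 CCC trinucleotides per kb, Hcn4 59.5% and 34.4 per kb, and Hcn3 58.2% and 28.7 per kb. The medians of the 11087 genes of the layer fit that have a canonical transcript (97.9% of 11324 tested) were 50.0% and 18.1 per kb. The CCC density of Hcn2 was above that of 98.3% of those genes, that of Hcn4 above 92.9% and that of Hcn3 above 84.0%. CPM and CPM per kb below are not corrected for this, and comparisons between the genes are also given per CCC trinucleotide. Whether it affects the layers differently was not tested.

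**Figure D1:**
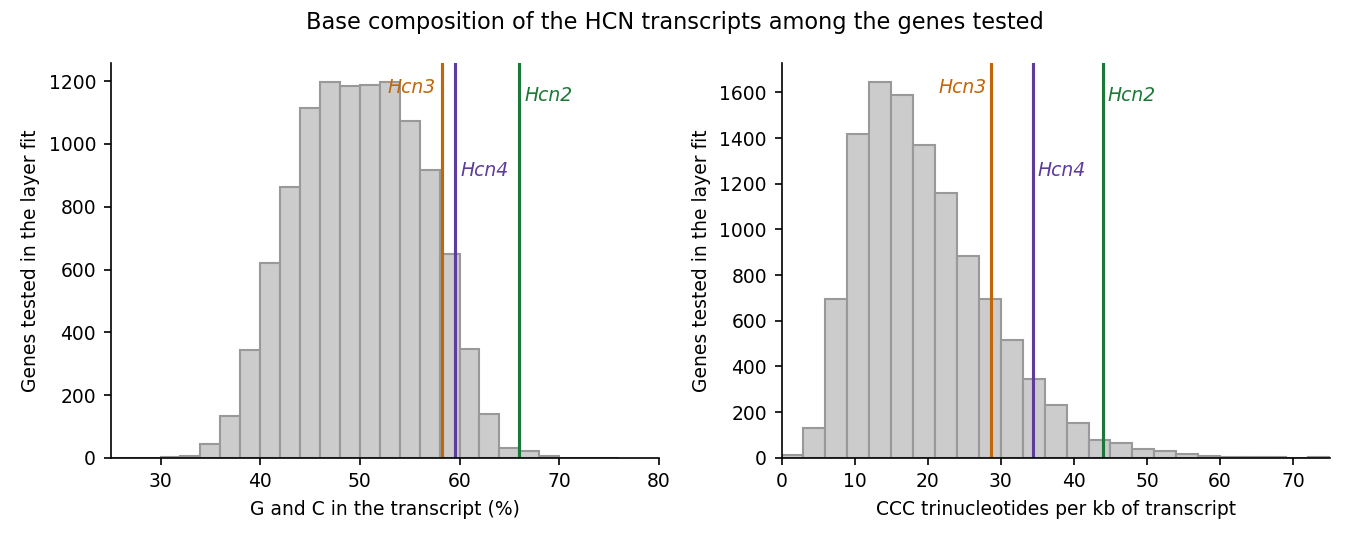
Histograms of the G and C content (left, %) and of the density of CCC trinucleotides (right, per kb) in the canonical transcripts of genes tested in the layer fit, with vertical lines at Hcn2, Hcn3 and Hcn4. All 3 lines stand right of the medians of 50.0% and 18.1 per kb, with Hcn2 farthest right at 65.9% and 44.0 per kb.

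Library totals ran from 310228 to 801105 UMIs (unique molecular identifiers, each counting 1 cDNA molecule) for the ONL, from 193869 to 208437 for the BCL, from 585655 to 785013 for the GCL, from 30317 to 87449 for TH+ cells and from 134394 to 200344 for TH- cells. Rod markers took 6.32% of ONL UMIs, 1.51% of BCL UMIs and 0.572% of GCL UMIs. Bipolar markers took 0.705% in the BCL against 0.0593% in the ONL and 0.167% in the GCL. Müller glia markers, whose cell bodies lie among the bipolar cells, took 0.71% in the BCL, and ganglion cell markers took 0.706% in the GCL against 0.056% in both other layers. The study also places horizontal cells in the BCL, and displaced amacrine cells beside the ganglion cells in the GCL. Amacrine markers took 0.135% in the GCL, 0.0642% in the BCL and 0.0302% in the ONL, so GCL values are not those of ganglion cells alone. The rod, bipolar and ganglion cell lists thus each had their highest share in the layer they mark, and none was at 0 in the other layers. In such bulk libraries, fewer cells that express a gene and less RNA in each cell cannot be told apart.

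The 3 genes were lowest in the ONL, and the other layers differed by gene. Hcn4 was highest in the BCL, Hcn2 was highest in the GCL, and Hcn3 stood at about the same mean in both. Levels are given as UMIs per 1000000 UMIs of the library (CPM), and errors are the SD over sections. How many of all genes had layers whose libraries did not overlap was not counted.

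Hcn4 reached 129, 134, 158 and 158 CPM in the BCL of sections 1 to 4, from 25 to 32 UMIs each. In the GCL of the same sections it was at 96.8, 104.9, 90.7 and 66.6 CPM, and in the ONL at 18.7, 11.1, 15.98 and 9.67 CPM. The 3 layers did not overlap, and their means were 145 ± 15.3 in the BCL, 89.7 ± 16.5 in the GCL and 13.9 ± 4.22 in the ONL (n = 4 each).

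Hcn2 followed another order. It was at 73.9, 65.9, 63.0 and 73.4 CPM in the GCL, at 15.5, 24.0, 25.4 and 24.7 in the BCL, and at 14.98, 4.15, 9.13 and 6.45 in the ONL. The GCL libraries stood far above all others with a mean of 69.1 ± 5.43 (n = 4). The BCL mean was 22.4 ± 4.65 and the ONL mean 8.68 ± 4.67, and the highest ONL library and the lowest BCL library, both of section 1, were almost level. These 2 libraries rest on 12 and 3 UMIs.

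Hcn3 was at 65.0, 62.9, 55.3 and 44.4 CPM in the GCL and at 20.6, 81.6, 66.1 and 54.4 in the BCL, where section 1 was low with 4 UMIs. In the ONL it was at 13.7, 4.15, 11.4 and 3.22 CPM. The means were 56.9 ± 9.32 in the GCL, 55.7 ± 25.9 in the BCL and 8.13 ± 5.23 in the ONL (n = 4 each). Every ONL library was below every library of the other layers, and the BCL and GCL ranges overlapped.

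**Figure D2:**
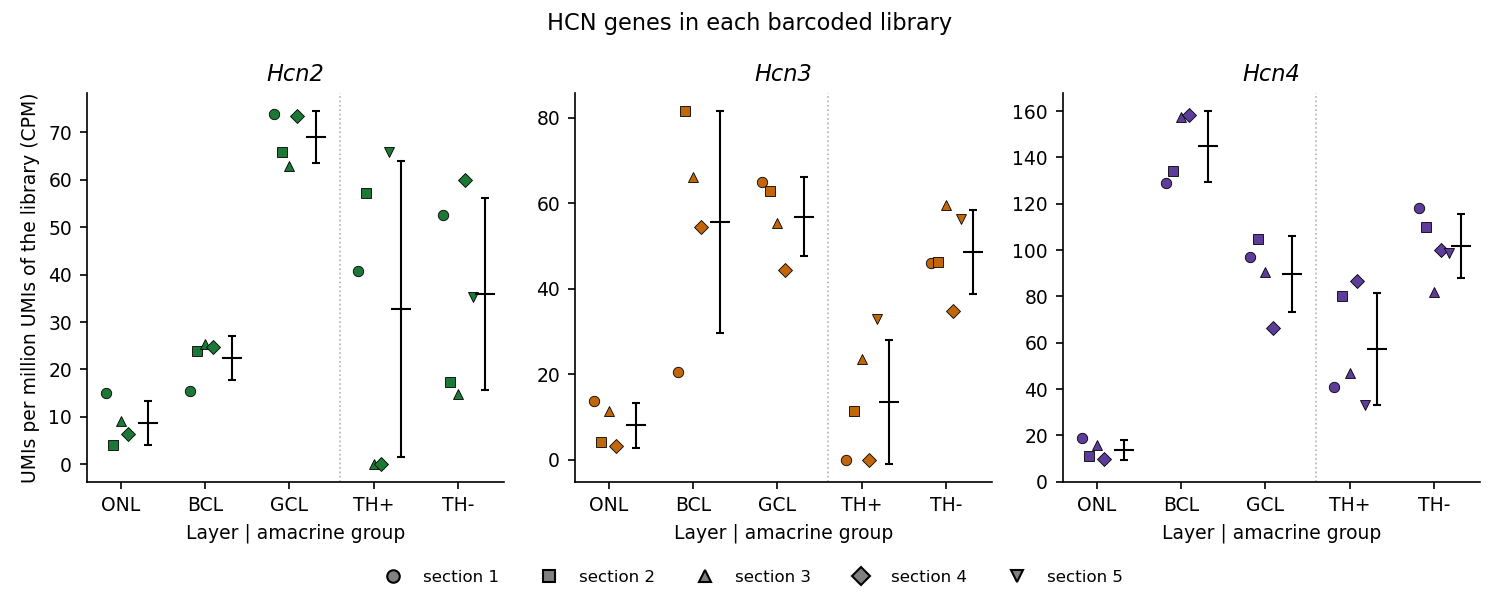
CPM of Hcn2, Hcn3 and Hcn4 in each library (points, with the symbol giving the section) and the mean ± SD (bars) for the ONL, BCL and GCL of 4 sections and, right of the dotted line, TH+ and TH- amacrine cells of 5 other sections. Each panel has its own linear axis. Hcn2 is highest in the GCL (63.0 to 73.9 CPM), Hcn4 in the BCL (129 to 158 CPM), and all ONL libraries lie at or below 18.7 CPM.

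All 3 genes passed between the ONL and the GCL. In edgeR's quasi-likelihood fit over all 12 layer libraries, with Benjamini-Hochberg adjustment over 11324 genes, Hcn2 was 6.52-fold lower in the ONL (log2 difference -2.705, SE 0.28, adjusted p = 1.83e-12). Hcn3 was 5.68-fold lower (log2 difference -2.51, SE 0.32, adjusted p = 8.77e-10) and Hcn4 5.47-fold lower (log2 difference -2.45, SE 0.23, adjusted p = 1.62e-13). All 3 were higher in the GCL, in a comparison in which 32.2% of all genes tested did so, 29.3% passed as higher in the ONL and 61.5% passed in either direction. The 95% intervals of the 3 differences overlapped, and the differences between genes were not tested. Between 10.6% and 14.4% of all genes tested changed by more than these genes did.

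Between the ONL and the BCL, Hcn3 and Hcn4 passed and Hcn2 did not. Hcn4 was 7.78-fold lower in the ONL (log2 difference -2.96, SE 0.26, adjusted p = 3.38e-14), and 2.90% of all genes tested had a larger difference. Hcn3 was 4.95-fold lower (log2 difference -2.31, SE 0.40, adjusted p = 3.65e-06), with a log2 difference of -3.07 without section 1 and -1.77 without section 2. Hcn2 had a fitted difference of -0.93 (log2, SE 0.46, edgeR adjusted p = 0.113), which did not pass. Hence 2 of the 3 genes passed, both higher in the BCL, where 18.2% of all genes passed in that direction, 18.5% in the other and 36.7% in either. Without section 1 the Hcn2 difference was -1.63 with an edgeR adjusted p = 0.0185, and it did not pass with any other single section left out. In that section the ONL library also held the highest share of bipolar markers among the ONL libraries, at 0.0763%, and the highest levels of all 3 genes. The ONL library of section 4 had nearly as high a share, 0.0699%, and the lowest Hcn3 and Hcn4 levels. The part of other cells' RNA in these values was not tested.

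Between the BCL and the GCL the genes went in different directions. Hcn2 was 3.43-fold lower in the BCL (log2 difference -1.78, SE 0.31, adjusted p = 4.58e-06). Hcn4 was 1.42-fold higher in the BCL (log2 difference 0.51, SE 0.18, edgeR adjusted p = 0.0216). For Hcn3 the difference was -0.20 (log2, SE 0.27, edgeR adjusted p = 0.620), with a 95% interval from -0.74 to 0.34. With 2 of the 3 genes passing, 1 in each direction, 36.5% of all genes tested passed, 16.1% as higher in the BCL and 20.4% as higher in the GCL. The Hcn4 call was the weaker of the 2: its difference was 0.45 without section 3 (edgeR adjusted p = 0.109), 0.32 without section 4 (edgeR adjusted p = 0.257) and 0.40 with no low-count filter (edgeR adjusted p = 0.159), although Hcn4 was higher in the BCL than in the GCL of the same section in 4 of 4 sections. Hcn2 stayed past the threshold in all 10 alternatives run.

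**Figure D3:**
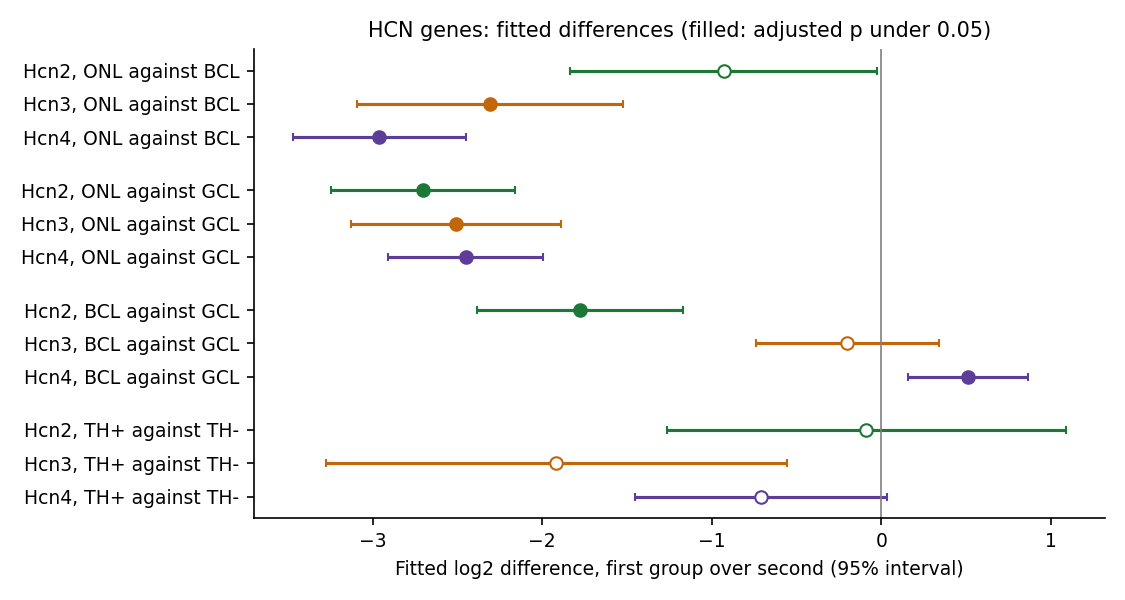
Fitted log2 differences of Hcn2, Hcn3 and Hcn4 with 95% intervals (1 point per gene and comparison, first group over second), filled where the adjusted p was under 0.05. The 3 genes sit together between -2.705 and -2.45 for the ONL against the GCL, and spread from -1.78 for Hcn2 to 0.51 for Hcn4 for the BCL against the GCL.

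The fitted differences are relative to the TMM scaling, which sets the bulk of genes near no difference. Relative to plain CPM, the scale factors, averaged over libraries, shift log2 differences by 0.32 for the ONL against the BCL. The shift is 0.16 for the ONL against the GCL and -0.17 for the BCL against the GCL. A fitted difference can lie further than this from the ratio of mean CPM. For Hcn2 that ratio was 0.387 for the ONL over the BCL, beside a fitted ratio of 0.525. On the TMM scale the Hcn2 libraries of the ONL (4.88 to 17.3) and of the BCL (13.8 to 23.1) overlapped. No other pair of layers that was apart in CPM overlapped on it.

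Between genes, levels were compared after division by exon length. In the BCL, Hcn4 was at 23.7 ± 2.50 CPM per kb, Hcn3 at 13.4 ± 6.23 and Hcn2 at 7.01 ± 1.46. In the GCL, Hcn2 was at 21.6 ± 1.70, Hcn4 at 14.7 ± 2.697 and Hcn3 at 13.7 ± 2.24, so Hcn2 had the lowest mean in the BCL and the highest in the GCL, and Hcn4 and Hcn3 did not differ beyond their spread there. The rank of Hcn2 in the GCL depended on this scaling: divided by the number of CCC trinucleotides instead, the GCL means were 0.491 ± 0.0803 for Hcn3, 0.443 ± 0.0348 for Hcn2 and 0.390 ± 0.0717 for Hcn4 (CPM per CCC). Per CCC trinucleotide, the BCL means were 0.629 ± 0.0665 for Hcn4, 0.480 ± 0.223 for Hcn3 and 0.144 ± 0.0298 for Hcn2, in the order found per kb. In the ONL all 3 lay between 1.96 and 2.72 CPM per kb, with SDs of 0.69 to 1.46. Hcn2 had the highest ONL mean per kb and the lowest per CCC trinucleotide. The ONL means per CCC were 0.0701 ± 0.0451 for Hcn3, 0.0603 ± 0.0184 for Hcn4 and 0.0556 ± 0.0299 for Hcn2, so no order is read there.

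The sum of the 3 genes per kb was 44.1 ± 8.88 in the BCL and 50.0 ± 4.62 in the GCL, against 6.94 ± 3.33 in the ONL. Within that sum Hcn2 made up 15.9% ± 0.544 in the BCL and 43.5% ± 5.54 in the GCL. Hcn4 made up 55.1% ± 9.84 in the BCL and 29.2% ± 3.47 in the GCL, with no overlap between the layers for either gene. The share of Hcn3 was 29.0% ± 9.97 and 27.3% ± 2.22. The BCL and the GCL thus had sums of 44.1 and 50.0 and a different mix. Per CCC trinucleotide, Hcn2 made up 11.5% ± 0.606 in the BCL and 33.8% ± 5.07 in the GCL, and Hcn4 52.0% ± 11.1 and 29.3% ± 2.96, again with no overlap between these layers. The sum covers these 3 genes and not the whole channel family.

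**Figure D4:**
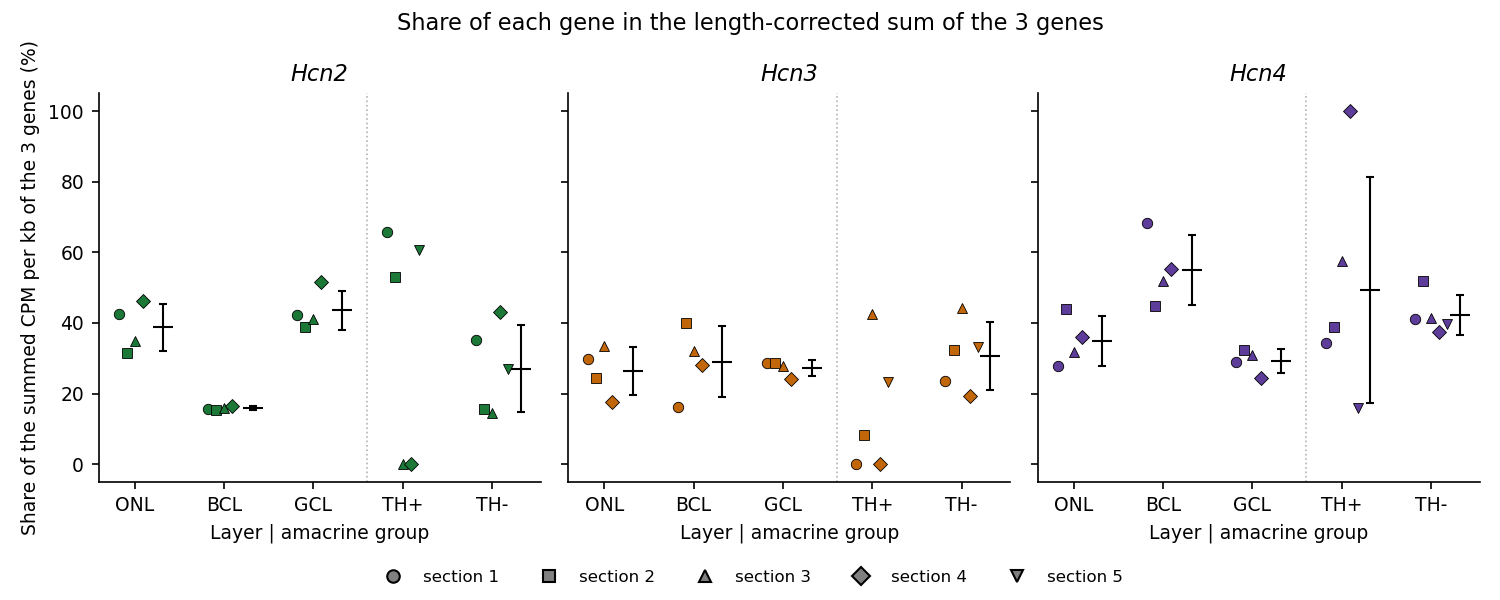
Share (%) of each gene in the summed CPM per kb of Hcn2, Hcn3 and Hcn4, by library (points, with the symbol giving the section), with the mean ± SD as bars for groups without a library at 0. In the BCL all 4 sections put Hcn2 between 15.3% and 16.6% and Hcn4 between 44.7% and 68.2%, and in the GCL Hcn2 takes 38.99% to 51.6%.

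In amacrine cells the counts were small. Hcn4 had 2, 7, 2, 4 and 1 UMIs in TH+ libraries of sections 1 to 5, which made 40.8, 80.05, 47.1, 86.5 and 33.0 CPM, and 118, 110, 81.8, 99.8 and 98.7 CPM in TH- libraries. It was lower in TH+ than in TH- cells of the same section in 5 of 5 sections, with means of 57.5 ± 24.2 and 102 ± 13.7 CPM (n = 5 each), and 1 TH+ library stood above the lowest TH- library. Hcn3 was listed at 0 in the TH+ libraries of sections 1 and 4 and had 1 UMI in each of the other 3, at 11.4, 23.5 and 33.0 CPM. In TH- libraries it was at 46.0, 46.3, 59.5, 34.9 and 56.4 CPM, from 7 or 8 UMIs each, lower in TH+ cells in 5 of 5 sections, and the groups did not overlap. How many of all genes kept the same order in all sections, or did not overlap, was not counted. A count of 0 allows up to 3 UMIs, which is 61.3 CPM in section 1 and 64.9 CPM in section 4 and so above every TH- library, for counting error only. With 0 or 1 UMI in every TH+ library, counting error alone leaves the order of the groups unsecured in each section. Hcn2 was at 40.8, 57.2, 0, 0 and 66.0 CPM in TH+ and at 52.6, 17.4, 14.9, 59.9 and 35.2 CPM in TH- libraries, higher in TH+ cells in 2 of 5 sections, and the groups overlapped. Its counts of 0 in sections 3 and 4 allow up to 70.6 and 64.9 CPM, above the TH- levels of those sections, so no order is read from them.

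None of the 3 genes passed in edgeR's test of TH+ against TH- cells over 6021 genes. The fitted log2 differences were -1.92 for Hcn3 (SE 0.69, edgeR adjusted p = 0.285), -0.71 for Hcn4 (SE 0.38, edgeR adjusted p = 0.614) and -0.09 for Hcn2 (SE 0.60, edgeR adjusted p = 0.988). At an unadjusted p under 0.05 there was 1 gene, Hcn3, against 8.85% of all genes tested, and DESeq2 called none. Of all genes tested 0.83% passed, 0.747% as higher in TH+ and 0.083% as higher in TH- cells. With the section as a block 148 genes passed in place of 50, none of them an HCN gene. The interval of the Hcn2 difference, from -1.27 to 1.09, leaves room for a 2-fold change in each direction. Rod markers were at 2.93% of UMIs in TH+ (1.37% to 3.55%) and 1.71% in TH- libraries (0.787% to 2.10%). Their share was higher in TH+ than in TH- libraries of the same section in 5 of 5 sections. Of the 7 rod markers, 2 passed as higher in TH+ cells in edgeR's test and none in DESeq2. All 7 had an unadjusted p under 0.05 in edgeR, with a median log2 difference of 0.75. Müller glia markers (mean 0.367% in TH+ and 0.542% in TH- libraries), amacrine markers (0.293% and 0.370%) and bipolar type markers (0.0747% and 0.101%) had lower shares in TH+ libraries in 5 of 5 sections. None of these genes passed in edgeR, where 3 of 6 Müller glia, 3 of 7 amacrine and 1 of 5 bipolar type markers tested had an unadjusted p under 0.05, or in DESeq2. The list of bipolar markers used for the layers had means of 0.165% in TH+ and 0.196% in TH- libraries. Its share was higher in TH+ in section 1 (0.161% against 0.141%) and lower in the other sections. None of its 6 genes tested passed in edgeR or DESeq2. The part of these cells' RNA in the HCN values was not tested.

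The amacrine cells can be set beside the layers only as values, since the sections, the experiment and the sequencing run were others. TH- cells had Hcn4 at 102 ± 13.7 CPM, Hcn3 at 48.6 ± 9.73 and Hcn2 at 36.0 ± 20.3 (n = 5). Hcn2 was above Hcn3 in section 1 (52.6 against 46.0 CPM) and in section 4 (59.9 against 34.9 CPM). Per kb, TH- cells had Hcn4 at 16.6 ± 2.24, Hcn3 at 11.7 ± 2.34 and Hcn2 at 11.3 ± 6.34, so Hcn3 and Hcn2 did not differ beyond their spread. Per CCC trinucleotide the TH- means were 0.442 ± 0.0596 for Hcn4, 0.419 ± 0.0839 for Hcn3 and 0.231 ± 0.130 for Hcn2, with Hcn4 and Hcn3 within their spread. In mouse 3T3 fibroblasts, a cell line barcoded in 3 wells of the same series, Hcn2 and Hcn3 had 1 UMI each and Hcn4 had 0 among 540880 UMIs. The upper end of the exact 95% Poisson interval was 10.3 CPM for Hcn2 and Hcn3 and 6.82 CPM for Hcn4 (counting error only). For Hcn2 and Hcn3 this is above the ONL means of 8.68 and 8.13 CPM, so no order between fibroblasts and the ONL is read for them.

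The genes whose levels followed each HCN gene most closely over the 12 layer libraries were named by Pearson correlation of log2 CPM, as a description of libraries that share sections and layers. For Hcn2 they were Sh3bgrl3 (r = 0.99), Dlg2 (r = 0.99), Kcnc1 (r = 0.99), Grin1 (r = 0.99) and Ndrg4 (r = 0.98). Dlg2 encodes a postsynaptic scaffold protein, Grin1 the obligate subunit of NMDA receptors and Kcnc1 a potassium channel of fast-spiking neurons. Their layer means rose from the ONL over the BCL to the GCL, for Kcnc1 from 59.2 to 155 and 523 CPM. A total of 592 genes reached r above 0.9 with Hcn2, so the named genes are not the only ones that followed it.

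For Hcn4 they were Myo16 (r = 0.99), Pde1b (r = 0.98), Lnx1 (r = 0.98), Adgrb1 (r = 0.98) and Asap2 (r = 0.98), and 309 genes were above 0.9. Pde1b, a calcium-activated phosphodiesterase that breaks down cyclic nucleotides, had 25.8 CPM in ONL, 222 in BCL and 139 in GCL libraries. For Hcn3 they were Shc3 (r = 0.97), Palld (r = 0.96), Jag2 (r = 0.95), Uhrf1bp1l (r = 0.95) and B230217C12Rik (r = 0.95), and 66 genes were above 0.9. Shc3, an adaptor protein of neurons, had 7.23 CPM in ONL, 32.3 in BCL and 30.9 in GCL libraries.

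Proteins that bind or regulate HCN channels were split between layers. Of 12 listed genes 10 were tested. Against the BCL, 3 were higher and 4 lower in the ONL, with a median log2 difference of -0.39 against 0.09 over all genes, of which 18.5% were higher and 18.2% lower. Against the GCL, 3 were higher and 7 lower in the ONL, with a median of -0.58 against 0.00 over all genes, of which 29.3% were higher and 32.2% lower. Pex5l, which encodes TRIP8b, an auxiliary subunit that sets how many HCN channels reach the membrane, was at 436 CPM in ONL, 117 in BCL and 104 in GCL libraries. It was higher in the ONL than in the GCL by 2.21 on the log2 scale (SE 0.13, edgeR adjusted p = 2.10e-21), opposite to Hcn2, Hcn3 and Hcn4. Kcne2, a small accessory subunit of potassium and HCN channels, was also higher in the ONL than in the GCL (log2 difference 4.60, SE 0.41, edgeR adjusted p = 1.51e-14). Src, a tyrosine kinase, and Flna, an actin-binding protein, were lower there, with log2 differences of -2.35 and -2.33. Between the BCL and the GCL 1 gene was higher and 3 lower in the BCL, the median was -0.33 against -0.02 over all genes, and 4 of 10 called is near the 36.5% called over all genes.

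Adenylyl cyclases make the cyclic AMP that HCN channels bind. Of 10 listed genes 8 were tested, and in the ONL 2 were higher and 3 lower than in the BCL (median log2 difference -0.76), and 2 were higher and 6 lower than in the GCL (median -2.46). Over all genes 36.7% were called in the first comparison (median 0.09) and 61.5% in the second (median 0.00). Adcy2 and Adcy5 were lower in the ONL than in the GCL, with log2 differences of -2.86 and -2.51 and an SE of 0.20 each. Adcy1, a cyclase activated by calcium and calmodulin, went the other way at 700 CPM in ONL, 255 in BCL and 439 in GCL libraries, as did Adcy6 at 108, 18.7 and 31.5 CPM. In the BCL none was higher than in the GCL and 6 were lower (median -1.04), where 20.4% of all genes were lower and the median of all genes was -0.02.

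Cyclic nucleotide-gated channels, relatives of the HCN channels that carry the light-controlled current of photoreceptors, were highest in the ONL. All 4 genes tested of 6 listed were higher in the ONL than in either other layer, with medians of 2.48 against the BCL and 3.69 against the GCL, where 18.5% and 29.3% of all genes were higher in the ONL and the medians of all genes were 0.09 and 0.00. Cnga1 and Cngb1, the rod subunits, were at 852 and 1607 CPM in the ONL and at 66.3 and 156 CPM in the GCL. Cnga3 and Cngb3, the cone subunits, were at 35.9 and 53.0 CPM in the ONL. In the BCL 3 of the 4 were higher than in the GCL (median 1.21, beside 16.1% of all genes and a median of -0.02), as were 7 of the 7 rod markers.

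Potassium channels of the EAG family (Kcnh genes) share the voltage sensor and the cyclic nucleotide-binding fold with HCN channels but let only potassium through. Of 8 listed genes 6 were tested, of which 3 were lower in the ONL than in the BCL and none higher (median -1.27), while 5 were lower and 1 higher in the ONL than in the GCL (median -2.62). Over all genes 18.2% were lower in the ONL than in the BCL (median 0.09), and 32.2% were lower and 29.3% higher than in the GCL (median 0.00). In the BCL 4 were lower and 1 higher than in the GCL (median -1.65), beside 20.4% and 16.1% of all genes (median -0.02). Like Hcn2, Kcnh5 and Kcnh7 had their highest mean in the GCL, with 22.8, 92.2 and 201 CPM for Kcnh5 and 19.2, 40.4 and 144 CPM for Kcnh7 from the ONL over the BCL to the GCL. Kcnh6 was highest in the BCL at 194 CPM against 13.0 in the GCL (log2 difference 3.70, SE 0.24, edgeR adjusted p = 1.17e-18), where Hcn4 had a difference of 0.51. Kcnh2 had 117 CPM in the BCL and 110 in the GCL, with a log2 difference of -0.08 (SE 0.18).

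**Figure D5:**
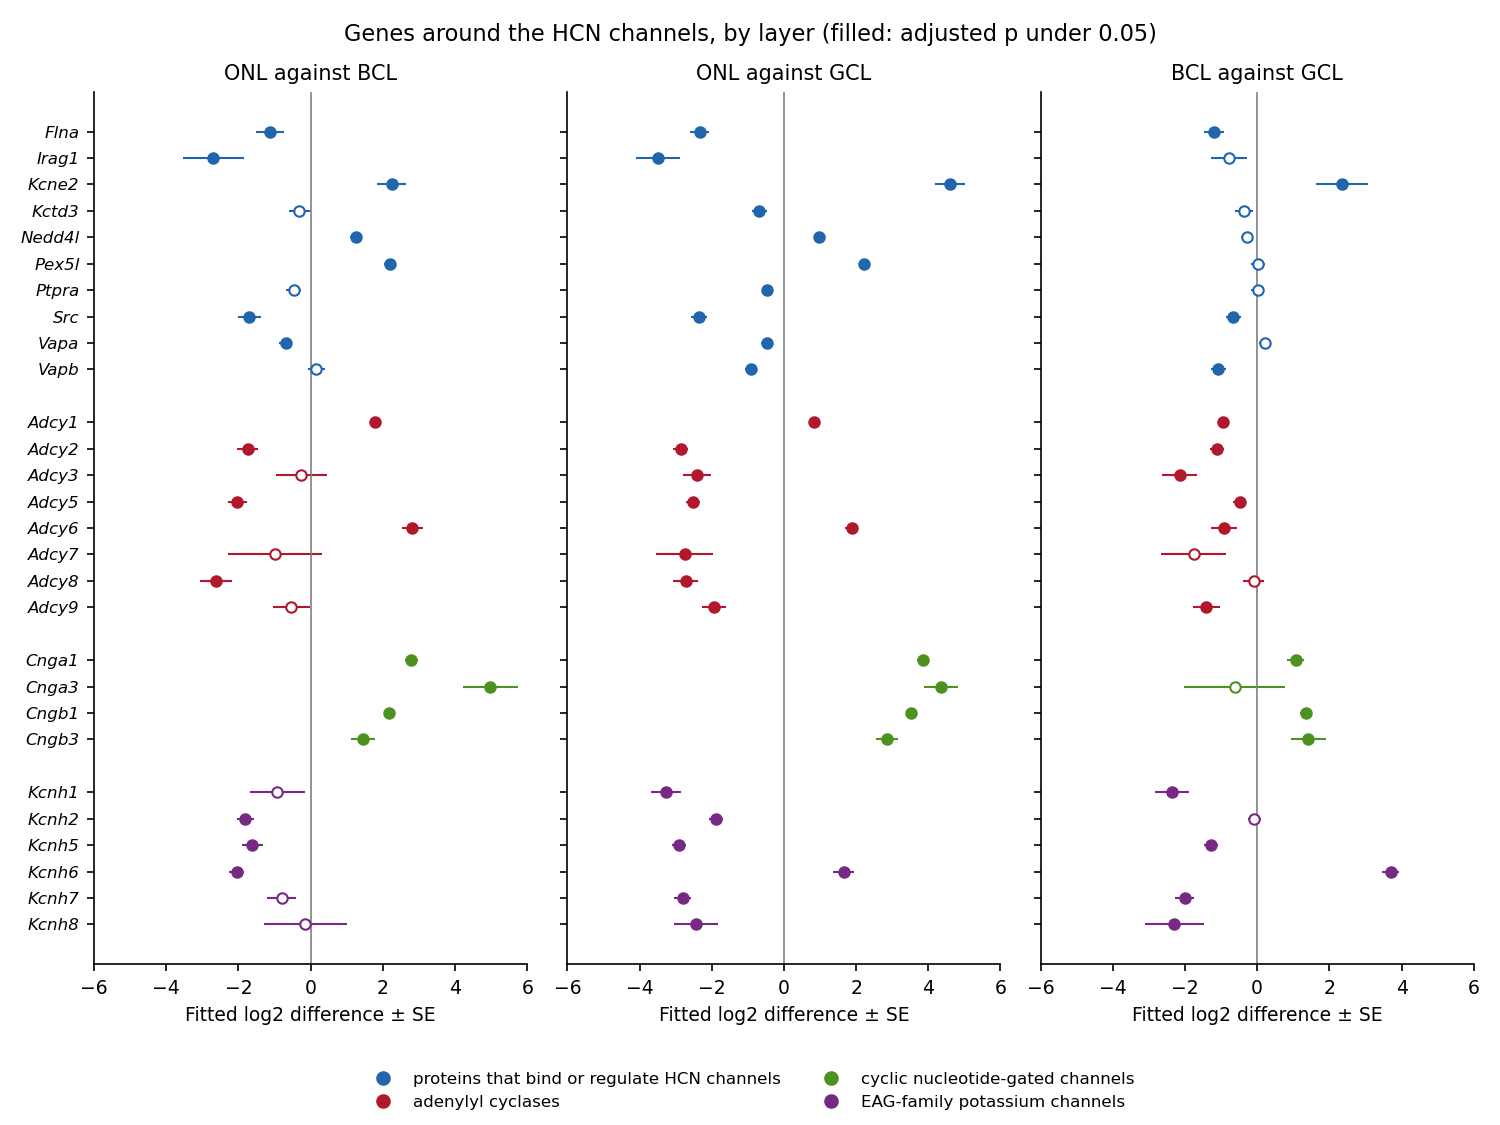
Fitted log2 differences ± SE of genes around the HCN channels for the 3 comparisons of layers, coloured by list and filled where the adjusted p was under 0.05. The cyclic nucleotide-gated channels lie right of 0 for the ONL against either layer, most Kcnh genes and adenylyl cyclases lie left of it, and Kcnh6 stands apart at 3.70 for the BCL against the GCL.

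In the TH+ against TH- comparison no gene of these 4 lists passed in edgeR or DESeq2, where 0.83% of all genes passed in edgeR. At an unadjusted p under 0.05 edgeR gave 1 of 8 regulators, 1 of 6 adenylyl cyclases, 2 of 2 cyclic nucleotide-gated channels and 2 of 5 Kcnh genes, against 8.85% of all genes tested.

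Markers of bipolar cell types were mostly highest in the BCL. Of the 8 listed genes 7 were higher in the BCL than in the ONL, with a median log2 difference of -2.72 for the ONL against the BCL, and 5 were higher and 1 lower in the BCL than in the GCL. Over all genes 18.2% were higher in the BCL than in the ONL (median 0.09), and 16.1% were higher and 20.4% lower than in the GCL. Grik1, a kainate receptor subunit of OFF cone bipolar cells, was at 702 CPM in BCL, 58.6 in GCL and 46.8 in ONL libraries. Prkca and Sebox, which mark rod bipolar cells, were at 1046 and 211 CPM in the BCL. Syt2, which marks a type of OFF and a type of ON cone bipolar cell, was at 151 CPM in both the BCL and the GCL. Against the GCL, Grik1 was higher in the BCL by 3.41 on the log2 scale (SE 0.16), beside 0.51 (SE 0.18) for Hcn4, and the difference between these genes was not tested. In TH+ against TH- cells none of the 5 tested passed in edgeR or DESeq2, with 1 at an unadjusted p under 0.05.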

How the data were processed

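RNA was reverse transcribed and barcoded by light in 4 retinal sections with 3 layers each and in 5 sections with TH+ and TH- amacrine cells. The authors took barcode, UMI and up to 40 bases of cDNA from read 1 with UMI-tools 1.1.1, mapped it with STAR 2.7.9a to mouse mm39 with GENCODE vM27, kept only reads that matched 1 place, used featureCounts to assign them to exons and collapsed UMIs per gene, so the deposited counts are whole UMIs without normalization. Exon lengths are those the authors deposited beside the cell line counts. The study's supplement gives default settings for featureCounts, which ignore strand, so reads of a gene and of one that overlaps it on the other strand cannot be told apart. In GENCODE vM39, 1239 exonic bases of Hcn3 lie within the span of Pklr on the other strand, which had 3 UMIs in the 12 layer libraries, and 605 exonic bases of Hcn2 lie within that of Gm66204 on the other strand, which has no row in the tables.

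CPM used the total of each column, from 30317 to 801105 UMIs. Differences were tested with edgeR 4.0.16 (R 4.3.3), quasi-likelihood F-test with TMM scaling, in 1 fit of 12 layer and 1 of 10 amacrine libraries, with Benjamini-Hochberg at 0.05 over all genes tested. Genes were kept by filterByExpr (min.count = 3, min.total.count = 10). All 3 HCN genes passed the filter in both. A standard error is the log2 difference divided by the square root of F, and intervals are 95% normal intervals from it. The fits were tested on simulated data. Alternatives were DESeq2 1.42.0, DESeq2-style size factors, the default or no filter on low counts, a block for the section, totals without genes of the mitochondrial genome, and each section left out in turn. Barcoded regions of 1 section share a GEO sample, so sections pair the libraries. Residuals of libraries of 1 section correlated at 0.0116 to 0.0493 over 12 layer pairs and at 0.0287 to 0.257 over 5 amacrine pairs.

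Every member is named in every comparison, with the 5 genes most correlated with it (log2 CPM, prior count 2) and at most 4 genes per list, those with the smallest adjusted p over the layer comparisons. Beside these rules, list members are given as counts. The genes and lists were chosen with earlier results of these data known. Some genes and sequences that fall under these rules are not reported here. Scripts used python 3.11.15, numpy 2.4.6, pandas 2.3.3, scipy 1.17.1 and matplotlib 3.10.9. Gene positions and transcript features are from GENCODE vM39 on GRCm39, the assembly of mm39. Counts of human cells and a second sequencing run of 1 cell line well were not used.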

Additional observations from a re-analysis of the deposited data

Results flagged for a closer look

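One value stood apart from the other sections of its group by the gap test for small samples (Dixon's test at 95%). Hcn2 in the BCL was at 15.5 CPM in section 1 and between 24.0 and 25.4 CPM in the other 3 sections. That library rests on 3 UMIs, against 5 in each of the others. The spread of the 4 libraries, an SD of 4.65 CPM, was below the 10.6 CPM that counting alone would give. The test was run on 15 groups of 4 or 5 sections, and chance flags about 1 group in 20.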

How the results depend on the processing

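The calls for Hcn2, Hcn3 and Hcn4 between the ONL and the GCL, for Hcn3 and Hcn4 between the ONL and the BCL, and for Hcn2 between the BCL and the GCL kept their direction and passed in all 10 alternatives run for each, with the Hcn3 difference between the ONL and the BCL ranging from -3.07 without section 1 to -1.77 without section 2. With no low-count filter the Hcn4 difference between the BCL and the GCL was 0.40 and did not pass, which left 1 HCN gene called there, and the cause was not tested. With each section left out in turn it ranged from 0.32 to 0.62, and 1 to 2 of the 3 genes were called. Hcn3 ranged from -0.41 to 0.13 in that comparison and changed sign without section 1. Hcn2 ranged from -1.63 to -0.60 between the ONL and the BCL, and passed only without section 1. In amacrine cells Hcn2 ranged from -0.83 to 0.47 and changed sign without section 4, and no HCN gene passed in any alternative that gave a value. With edgeR's default filter, all 3 dropped out of the amacrine fit.

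The sections pair the libraries, and with that replicate block the number of genes that passed between TH+ and TH- cells rose from 50 to 148. All 50 were among the 148. Leaving out 1 amacrine section gave 29 to 73 genes, with 29 without section 3 and 31 without section 5. The block changed no call of an HCN gene, and moved the Hcn4 difference between the BCL and the GCL to 0.52.

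CPM and per kb levels moved by less than the SD between sections, except that Hcn2 in the GCL was at 23.8 CPM per kb when mitochondrially encoded genes were left out of the total, against 21.6. The means with each section left out, an alternative added after seeing the data, stayed within 1 SD. Scaling by CCC trinucleotides in place of exon length, also added after seeing the data, moved the share of Hcn2 in the sum of the 3 genes to 29.9% for the ONL, 11.5% for the BCL and 33.8% for the GCL, and that of Hcn3 to 35.2% in the ONL and 36.9% in the GCL. Few UMIs lie behind the ONL levels (1 to 15 per gene and library) and the TH+ levels (0 to 7), which limits their precision.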
